A study of Mus musculus with 12 samples.

Results

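The Meis, Pbx and Pknox genes were examined in RNA-seq libraries of murine inner medullary collecting duct cells (mIMCD3), which are tubular epithelial cells taken from mice that carry the early region of simian virus SV40. The members are the rows of the normalized count table whose Ensembl identifiers map to Meis1, Meis2, Meis3, Pbx2, Pbx3, Pbx4, Pknox1 and Pknox2, which makes 8 of the 47642 genes listed. The 12 libraries comprised 4 of wild-type cells, 4 of Pkd1-/- cells and 4 of Pkd2-/- cells, all of the same immortalized line and without further treatment. RNA was isolated 4 days after full confluency, and 4 of the 6 dishes grown per genotype were chosen by RNA purity. The Pkd1-/- cells carry a CRISPR deletion of the gene of the large membrane protein polycystin-1, and the Pkd2-/- cells carry a TALEN deletion of exons 4 to 9 of the gene of its partner, the channel TRPP2. Each mutant genotype is 1 clone, and the libraries of a genotype are separate dishes of the same cells, so p-values measure the spread between dishes and not between clones. A difference between genotypes therefore cannot be told apart from a difference between clones. The genes were chosen by the normalized counts of Meis1, which was known to be lost in the Pkd2-/- libraries, so that loss is given as a description without a test. The other members were taken for their family.

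Meis, Pbx and Pknox proteins are homeodomain transcription factors of the TALE class, named after a loop extension of a few amino acids between the first and the second helix of the homeodomain. Meis and Pknox proteins bind DNA together with Pbx proteins, and such dimers join Hox proteins on composite sites, which sharpens the choice of target genes. In the embryo they pattern the limbs, the blood lineages and the urogenital tract, and Pbx and Meis genes are expressed in the developing kidney.

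The homeobox encodes the DNA-binding homeodomain, and its coding sequence is shown for the 3 Meis genes to give how far the paralogs differ in this part. A window of 189 coding bases was read from the longest protein-coding transcript of each gene in GENCODE M21, with the codons of the loop motif in capitals. In each gene the window lies in exons 8 to 10, and the positions include the introns between them. They are chr11:18885609-18941727 on the minus strand for Meis1, chr2:115868761-116000199 on the minus strand for Meis2 and chr7:16182400-16184080 on the plus strand for Meis3, in GRCm38.
Meis1: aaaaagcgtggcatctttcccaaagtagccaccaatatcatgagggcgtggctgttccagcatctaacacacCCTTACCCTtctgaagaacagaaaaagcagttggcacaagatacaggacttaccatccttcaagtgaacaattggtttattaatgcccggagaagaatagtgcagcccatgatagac
Meis2: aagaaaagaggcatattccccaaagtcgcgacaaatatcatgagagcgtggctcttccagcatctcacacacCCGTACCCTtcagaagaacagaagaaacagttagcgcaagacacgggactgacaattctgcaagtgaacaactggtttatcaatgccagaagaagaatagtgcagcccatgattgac
Meis3: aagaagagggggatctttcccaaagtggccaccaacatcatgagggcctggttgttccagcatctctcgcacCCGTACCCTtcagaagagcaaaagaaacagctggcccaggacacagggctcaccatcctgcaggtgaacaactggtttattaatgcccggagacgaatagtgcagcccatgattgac

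The Meis1 and Meis2 windows were identical at 160 of the 189 bases (84.7%), and 27 of their 29 differences fell on the third position of a codon. Meis1 and Meis3 shared 161 bases (85.2%), and Meis2 and Meis3 shared 158 (83.6%). Of the 63 codons, 63 encoded the same amino acid in Meis1 and Meis2, and 62 did in each pair with Meis3. Over whole annotated transcripts, the longest stretch without a difference was 32 bases between Meis1 and Meis2, 28 between Meis2 and Meis3 and 21 between Meis1 and Meis3.

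The depth of the libraries was estimated from the spacing of the lowest values at 23196462 to 30342945 reads on genes, so that 1 read was worth 0.886 to 1.127 normalized counts, and a value of 0 allows up to 3 counts in a library. No library went against its label where this could be checked. Pkd1 measured 682, 688, 883 and 876 normalized counts in the wild-type libraries and 40, 49, 48 and 30 in the Pkd1-/- libraries. Pkd2 had a mean of 3971 in wild-type and 3986 in Pkd2-/- libraries, and because the deletion leaves the other exons in place, this gene total does not check the Pkd2-/- label. Of the epithelial markers, the summed level was 72009 to 85088 normalized counts over all libraries, with Epcam, Krt18 and Cdh1 the most abundant. Aqp2 and Aqp4, the water channels that define principal cells, were at 0 in every library. Single markers differed between genotypes. Scnn1g averaged 928, 303 and 255 in wild-type, Pkd1-/- and Pkd2-/- libraries, and Gata3 averaged 227, 48.5 and 354. Of the 14 tested by limma, Scnn1g and Gata3 were called lower in Pkd1-/- cells and Scnn1g in Pkd2-/- cells, with 0 called higher. Over all genes, 3.28% and 6.38% were called lower.

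Meis1 was lost from the Pkd2-/- libraries and reduced in the Pkd1-/- libraries. It measured 180, 186, 182 and 143 normalized counts in wild-type replicates 1 to 4. It measured 82, 64, 53 and 87 in Pkd1-/- and 0, 0, 1 and 0 in Pkd2-/- cells. The 3 genotypes did not overlap, and a single count was found among all Pkd2-/- libraries together. Summed over its 4 libraries, Meis1 came to 691 in wild-type cells, 286 in those lacking Pkd1 and 1 in those lacking Pkd2. In such bulk RNA, fewer expressing cells and less RNA per cell cannot be told apart.

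The genes were chosen because Meis1 is lost in 1 knockout, so its level in the Pkd1-/- libraries may have been known as well. They are also compared with the same wild-type libraries, so the p-values of Meis1 given here are not independent of that choice. Meis1 averaged 173 ± 20.0 in wild-type and 71.5 ± 15.8 in Pkd1-/- cells (SD, n = 4 each), a log2 fold change of -1.28 (SE 0.266, limma adjusted p = 0.00114). The exact permutation test gave p = 0.0286, the smallest value that 4 libraries against 4 allow. Wild-type replicate 4 was the lowest of its group, and without it the direction and the call held.

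Meis2, a paralog of Meis1 with the same loop and DNA-binding homeodomain class, rose in Pkd1-/- cells, and this rise placed all 4 Pkd1-/- libraries far above the others. Its normalized counts were 1177, 1042, 1079 and 1181 in wild-type libraries, 2227, 2410, 2547 and 2241 in those of Pkd1-/- and 1165, 1360, 1302 and 1375 in Pkd2-/- libraries. The mean went from 1119.8 ± 70.1 to 2356 ± 152 (SD, n = 4 each), a 2.1-fold increase with a log2 fold change of 1.07 (SE 0.064, limma adjusted p = 3.02e-10).
In Pkd2-/- cells the mean was 1300.5 ± 95.7, and the log2 fold change of 0.21 passed the limma test (adjusted p = 0.0112) while the libraries overlapped with wild-type and the exact permutation test gave p = 0.0857. Between the mutants, Meis2 was lower in Pkd2-/- cells, at a log2 fold change of -0.86 (limma adjusted p = 2.32e-09).

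Meis3, the least abundant of the 3 paralogs per kb of exon in wild-type cells, moved in opposite directions in the mutants. Its normalized counts were 23, 30, 41 and 33 in wild-type libraries, 12, 21, 13 and 16 in those of Pkd1-/- and 102, 107, 102 and 102 in Pkd2-/- libraries. No Pkd2-/- library was near a library of another genotype, and the highest Pkd1-/- value lay just under the lowest wild-type value. Against wild-type, the mean of 103 ± 2.50 in Pkd2-/- cells was 1.7 higher on the log2 scale (limma adjusted p = 3.02e-06), and against Pkd1-/- it was 2.69 higher (adjusted p = 5.3e-09).
The lower mean in Pkd1-/- cells, 15.5 ± 4.04 against 31.8 ± 7.46, gave a log2 fold change of -0.99 (SE 0.214, limma adjusted p = 0.00162), just short of the fold threshold of 1, so that it was not called. It passed that threshold when Pkd1-/- replicate 2 or 4, or wild-type replicate 1 or 2, was left out, with values of -1.14, -1.02, -1.13 and -1.01.

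**Figure D1:**
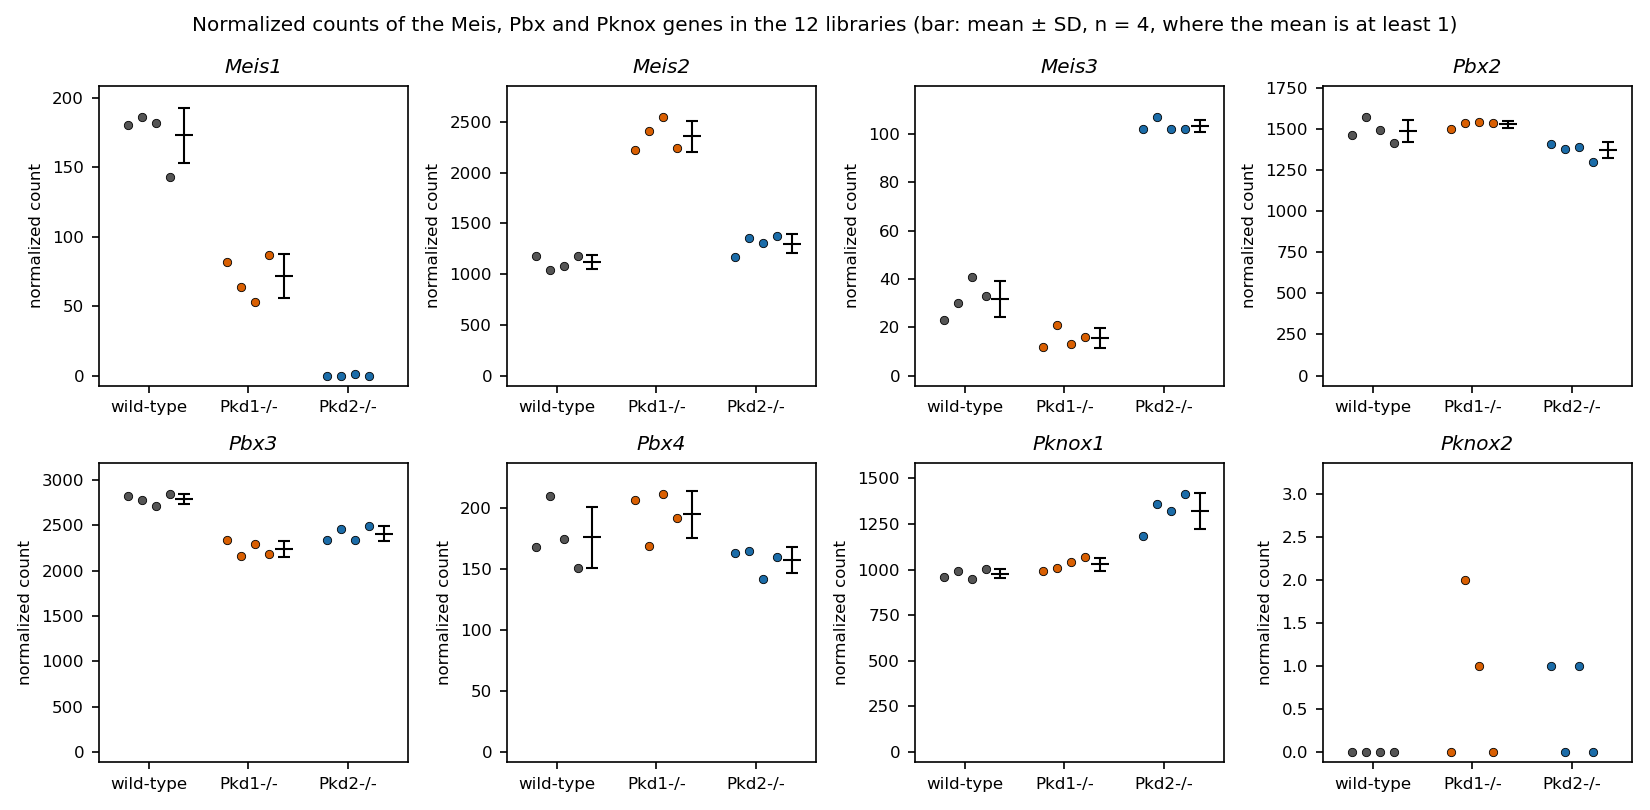
Normalized counts (linear axis from 0) of the 8 genes, with a point for each of the 12 libraries by genotype and a bar for the mean ± SD of 4 libraries where the mean is at least 1. Meis1 fell from 143 to 186 in wild-type libraries to 53 to 87 in those of Pkd1-/- and 0 to 1 in Pkd2-/- libraries, Meis2 was highest in Pkd1-/- and Meis3 in Pkd2-/- libraries, and the Pbx genes moved little.

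To compare the 3 paralogs with each other, normalized counts were divided by the length of each gene's annotated exons. Meis2 carried most of the summed Meis level in every genotype. The sum was 119 ± 3.98 normalized counts per kb in wild-type libraries, 207 ± 11.4 in those of Pkd1-/- and 141 ± 8.3 in Pkd2-/- libraries (SD, n = 4 each). The lowest Pkd2-/- library, at 129, lay above the highest wild-type library, at 122.
Meis1 made up 13.8% of the sum in wild-type libraries, 3.31% in those of Pkd1-/- and 0.0169% in Pkd2-/- cells. Meis3 went from 8.39% in wild-type libraries to 2.36% in those of Pkd1-/- and 23.2% in Pkd2-/- cells. The summed level of the family was thus not lower in the mutants although Meis1 was. With the length of the longest protein-coding transcript in place of all exons, the sums were 341, 652 and 406 per kb in the same order of genotypes, and Meis2 took a larger share. That of Meis1 was then 6.73%, 1.47% and 0.00816%, and that of Meis3 was 5.08%, 1.29% and 13.9%.

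**Figure D2:**
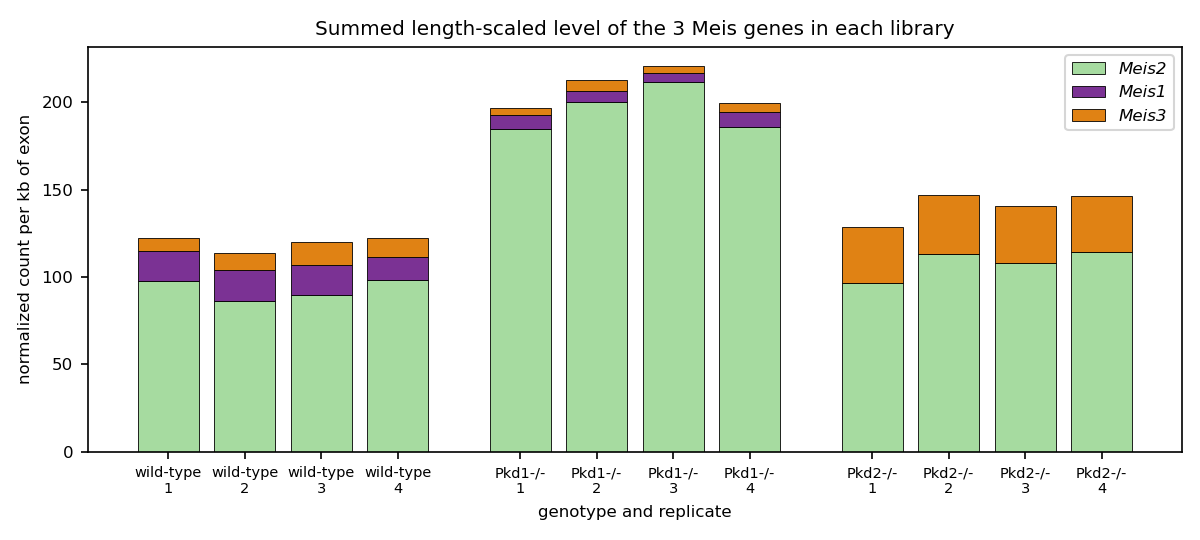
Stacked bars of the normalized count per kb of exon (linear axis from 0) of Meis2, Meis1 and Meis3 in each of the 12 libraries. The whole bar rises from a mean of 119 in wild-type libraries to 207 in those of Pkd1-/- and 141 in Pkd2-/- libraries, the Meis1 segment narrows in Pkd1-/- and is absent to the eye in Pkd2-/- bars, and the Meis3 segment is widest in Pkd2-/- bars.

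The Pbx genes encode the partners of Meis and Pknox proteins and changed much less. Pbx3 was 2818, 2778, 2717 and 2850 in wild-type libraries, 2337, 2158, 2294 and 2179 in those of Pkd1-/- and 2339, 2455, 2340 and 2496 in Pkd2-/- libraries. Both mutants lay wholly below wild-type, at log2 fold changes of -0.32 (limma adjusted p = 2.46e-05) and -0.21 (adjusted p = 0.000728), and the lowest Pkd2-/- library lay just above the highest Pkd1-/- library. Between the mutants the log2 fold change was 0.1, which did not pass the limma test (adjusted p = 0.0706), while the exact permutation test gave p = 0.0286.
Pbx2 was 1464, 1571, 1491 and 1412 in wild-type libraries, 1498, 1536, 1539 and 1533 in those of Pkd1-/- and 1408, 1376, 1390 and 1299 in Pkd2-/- libraries. It did not pass the limma test against wild-type in Pkd1-/- cells (0.04, adjusted p = 0.601) or in Pkd2-/- cells (-0.12, adjusted p = 0.0621, but 0.0377 without wild-type replicate 4 and 0.0103 after rescaling to the same upper quartile), and it was lower in Pkd2-/- than in Pkd1-/- cells (-0.16, adjusted p = 0.0117).
Pbx4, the least abundant of these Pbx genes per length, was 168, 210, 175 and 151 in wild-type libraries, 207, 169, 212 and 192 in those of Pkd1-/- and 163, 165, 142 and 160 in Pkd2-/- libraries. Its log2 fold changes against wild-type were 0.15 (adjusted p = 0.374) and -0.15 (adjusted p = 0.319), and the Pkd2-/- libraries were lower than the Pkd1-/- libraries (-0.3, adjusted p = 0.0366). This last difference did not pass the test without Pkd1-/- replicate 1, 3 or 4 (adjusted p = 0.0886, 0.106 and 0.0582) or without Pkd2-/- replicate 3 or 4 (0.103 and 0.0527).

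The Pknox proteins, also known as Prep proteins, compete with Meis proteins for Pbx partners. Pknox1 was 961, 992, 950 and 1004 in wild-type libraries, 995, 1007, 1042 and 1070 in those of Pkd1-/- and 1184, 1357, 1320 and 1417 in Pkd2-/- libraries. All Pkd2-/- libraries stood above the rest, and the log2 fold change was 0.43 against wild-type (limma adjusted p = 6.39e-06) and 0.36 against Pkd1-/- (adjusted p = 4.49e-05). Between Pkd1-/- and wild-type it was 0.07 (adjusted p = 0.395) with overlapping libraries.
Pknox2 was 0 in all wild-type libraries, 0, 2, 1 and 0 in Pkd1-/- and 1, 0, 1 and 0 in Pkd2-/- libraries. These values are within the 3 counts that a value of 0 allows, so no change was detectable, and Pknox2 was the 1 member left out of the tests by the filter on low values.

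A gene was called when its adjusted p lay under 0.05 and its log2 fold change was 1 or more in size. Of the 7 members tested, 2 were called in Pkd1-/- against wild-type cells, where 6.24% of the 18552 genes tested were called, with Meis2 higher (2.96% of all genes) and Meis1 lower (3.28%). Without Meis1, whose values chose the genes, 1 of 6 was called there. In Pkd2-/- against wild-type, 1 of the 6 tested members other than Meis1 was called, beside 9.62% of all genes. This was Meis3, which was higher, and 3.24% of all genes were called higher and 6.38% lower. In Pkd2-/- against Pkd1-/- Meis3 was again the 1 of 6 called, beside 11.8% of all genes, of which 4.53% were called higher and 7.23% lower. By the adjusted p alone, 4 of 7 members passed in Pkd1-/- against wild-type, and without Meis1 4 of 6 passed in Pkd2-/- against wild-type and 5 of 6 in Pkd2-/- against Pkd1-/-, beside 27.1%, 42.3% and 46.3% of all genes. In Pkd1-/- against wild-type, 1 of the 6 members other than Meis1 passed as higher and 2 as lower. The median log2 fold change of those 6 was 0.06, 0.05 and -0.03 in the 3 comparisons, beside 0.01, -0.01 and -0.01 over all genes tested.
Libraries of the compared genotypes did not overlap for 4 of 7 members in Pkd1-/- against wild-type, beside 27.1% of all genes. Of the 6 members other than Meis1, 1 lay wholly higher and 2 wholly lower there. Without Meis1, the libraries did not overlap for 4 of 6 in Pkd2-/- against wild-type (37.2% of all genes) and for 6 of 6 in Pkd2-/- against Pkd1-/- (41.8%). The comparisons share libraries and are not independent of each other.

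**Figure D3:**
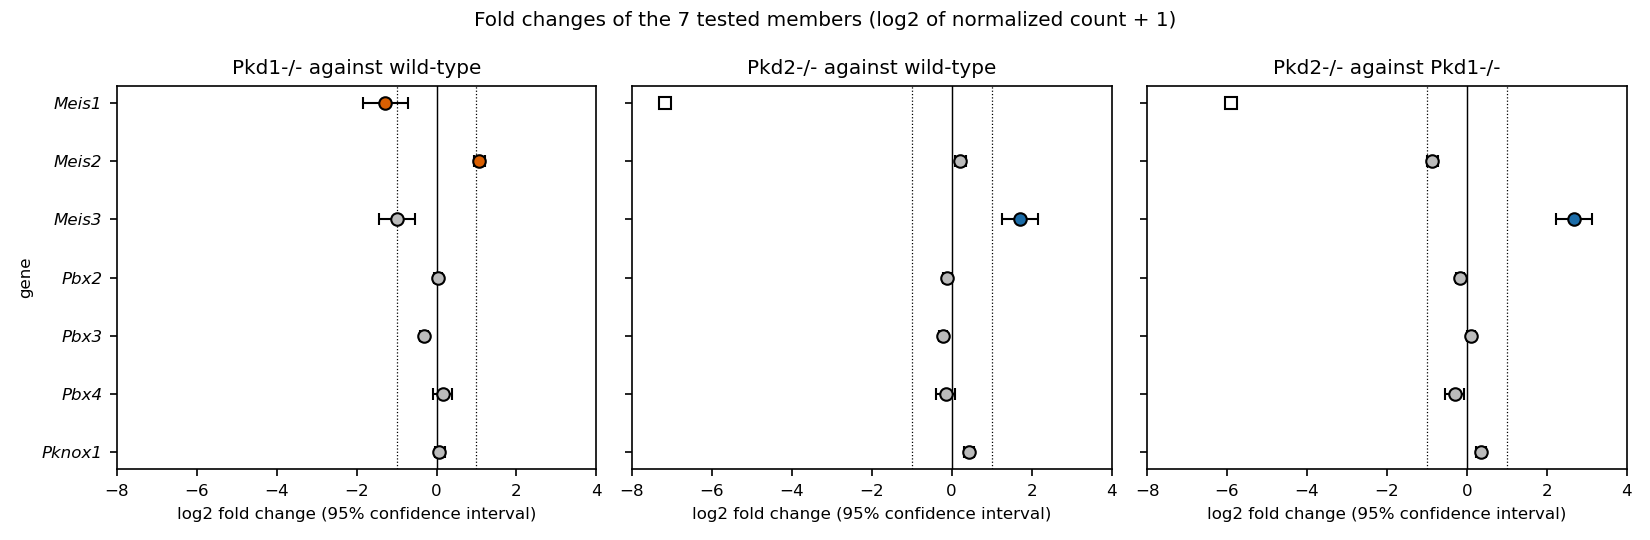
Log2 fold changes (log2 of normalized count + 1, linear axis) of the 7 tested members in the 3 comparisons, with 95% confidence intervals from limma, coloured where called and grey where not, and dotted lines at the fold threshold of 1. Open squares are the fitted values of Meis1 against Pkd2-/- libraries, which chose the genes, depend on the pseudocount and carry no interval. The Pbx genes and Pknox1 stay within the dotted lines.

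Ordered by normalized count per kb of exon, the wild-type cells held Pbx3 (457 ± 9.38), Pbx2 (408 ± 18.2), Pknox1 (141 ± 3.67), Meis2 (93.0 ± 5.82), Pbx4 (79.4 ± 11.2), Meis1 (16.4 ± 1.9) and Meis3 (10.0 ± 2.35), each with SD and n = 4, and Pknox2 was at 0. Neighbours in this order did not overlap between libraries except Meis2 and Pbx4. In Pkd1-/- cells Pbx2 (419 ± 5.26) stood above Pbx3 (367 ± 14.3) and Meis2 (196 ± 12.6) above Pknox1 (148 ± 4.92), while Meis1 (6.79 ± 1.5) and Meis3 (4.88 ± 1.27) overlapped. In Pkd2-/- cells Pbx3 (394 ± 13.1) and Pbx2 (376 ± 13.2) overlapped, and Meis3 (32.5 ± 0.788) took the place of Meis1. Several of these places depend on the length used. With the longest protein-coding transcript, Pbx3 ranked 1 in every genotype and its libraries overlapped with those of no other gene. In wild-type cells Meis2 (301 per kb) then stood above Pknox1 (230), and Meis1 (22.9) and Meis3 (17.3) overlapped. In Pkd1-/- cells the order became Pbx3 (820), Meis2 (634) and Pbx2 (498). In Pkd2-/- cells Pbx3 (881) no longer overlapped with Pbx2 (446), and Meis2 (350) overlapped with Pknox1 (310).

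Meis1 lies at chr11:18879817-19018985 on the minus strand (GRCm38), far from other expressed genes. Only 1 tested gene, a pseudogene, lay within 500 kb, and it was not called by limma and had no unadjusted p under 0.05. The nearest genes that averaged 10 normalized counts or more were the pseudogene Gm12020, at 552.1 kb, and Spred2, an inhibitor of Ras signalling, at 905.4 kb on the other side. Both were higher in Pkd2-/- cells, where Meis1 was lost, than in wild-type cells, with means of 574 ± 40.0 against 353 ± 43.2 for Gm12020 (log2 fold change 0.71, limma adjusted p = 3.11e-06) and 866 ± 75.1 against 517 ± 65.9 for Spred2 (0.75, adjusted p = 7.15e-07). Spred2 was also higher in Pkd1-/- than in wild-type cells (703 ± 30.7, log2 fold change 0.45, limma adjusted p = 0.00043), and Gm12020 was at 0.21 there (adjusted p = 0.0868).
Of the 49 such genes within 5 Mb, 0 were called by limma in Pkd1-/- cells (15 had an unadjusted p under 0.05). In Pkd2-/- cells 1 was called higher and 1 lower (32 had an unadjusted p under 0.05), with a median log2 fold change of 0.09. Among all 18552 genes tested, 6.24% and 9.62% were called in these 2 comparisons. The exons of Meis1 share 1925 bases with 2 annotated genes that were at 0 in every library, and whether reads were counted by strand is not given in the sources used here.

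Meis2 lies at chr2:115863064-116065839 on the minus strand. A long non-coding RNA gene on the same strand, 2700033N17Rik, ends 0.4 kb upstream of it at chr2:116066218-116067444. Its mean went from 39.8 ± 8.88 in wild-type to 75.3 ± 5.74 in Pkd1-/- cells (SD, n = 4 each), a log2 fold change of 0.93 (limma adjusted p = 0.00619), and it was 39.0 ± 14.9 in Pkd2-/- cells. It thus had the same direction as Meis2 in both comparisons of Pkd1-/- libraries. Against Pkd2-/- libraries it was the single gene called among the 6 tested within 500 kb, beside 11.8% of all genes. On the other side, BC052040 at 84.3 kb was at 0.06 in Pkd1-/- cells (adjusted p = 0.471).
Meis3 lies at chr7:16175090-16186504 on the plus strand among many expressed genes. Of the 19 tested within 500 kb, 0 were called by limma in Pkd1-/- cells (7 had an unadjusted p under 0.05). In Pkd2-/- cells, where Meis3 itself was higher, 2 were called lower (11 had an unadjusted p under 0.05). Over all genes, 3.28% and 6.38% were called lower in these 2 comparisons. Ehd2, which encodes a caveola-associated ATPase and lies 223.5 kb away between gene centres, averaged 534 ± 35.2 in wild-type libraries, 951.5 ± 50.0 in those of Pkd1-/- and 81.8 ± 7.41 in Pkd2-/- libraries, the opposite order to Meis3 (log2 fold change -2.7 in Pkd2-/- against wild-type, limma adjusted p = 8.14e-15). The other was the sodium-calcium exchanger gene Slc8a2, with means of 12.8 in wild-type and 2.75 in Pkd2-/- cells (-2.21, adjusted p = 0.00155). Its nearest expressed neighbours, Dhx34 at 10.6 kb and Kptn at 47.6 kb, were at -0.09 (adjusted p = 0.334) and -0.27 (adjusted p = 0.0101) in Pkd2-/- cells.

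**Figure D4:**
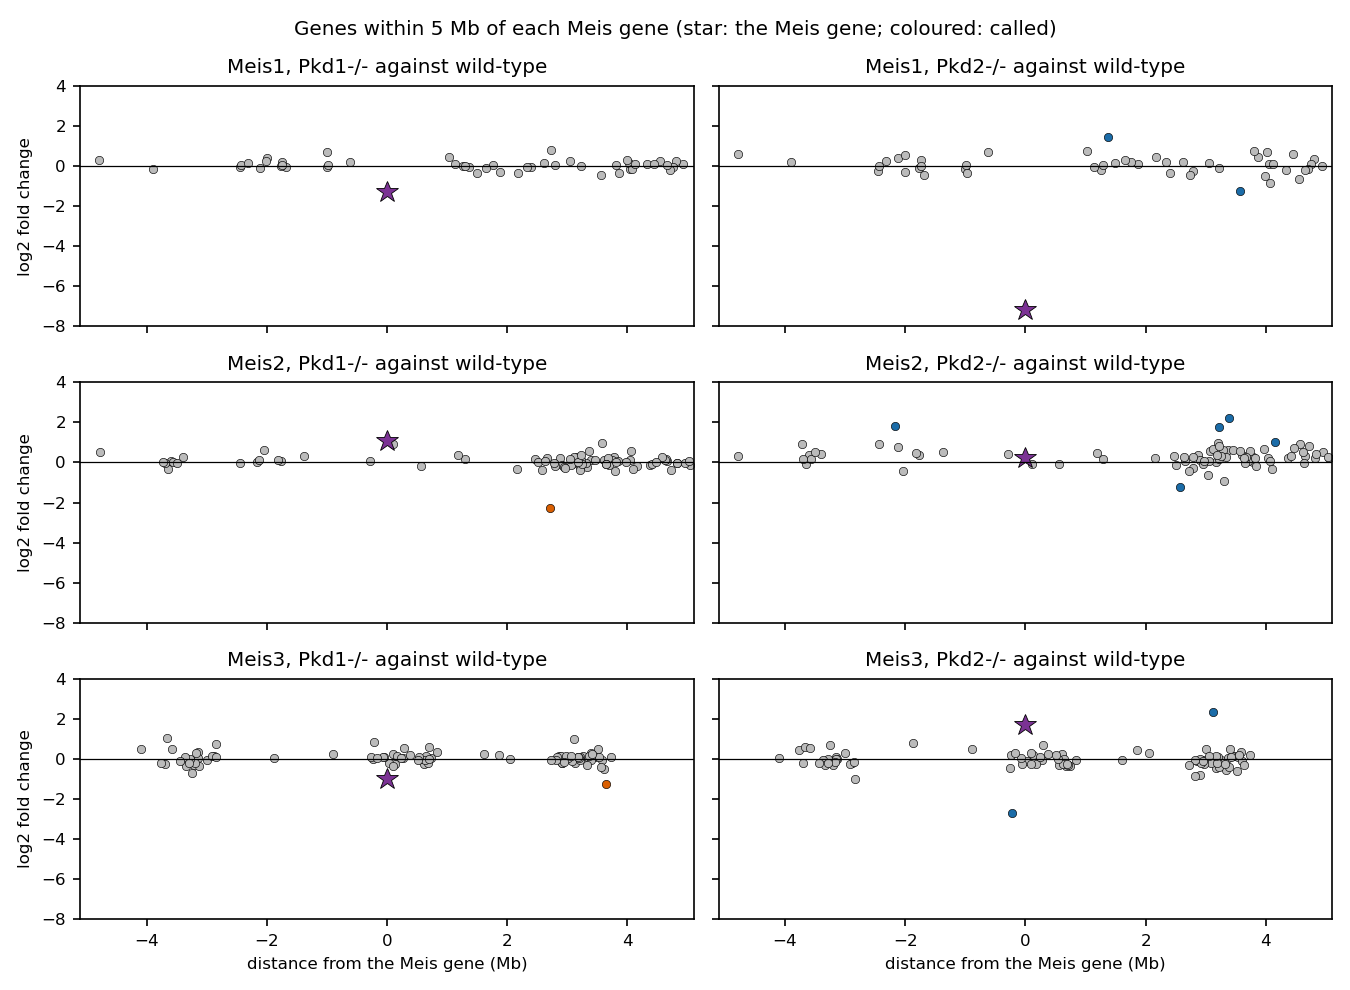
Log2 fold changes (linear axis) of genes averaging 10 normalized counts or more against their distance in Mb from Meis1, Meis2 or Meis3, in Pkd1-/- and Pkd2-/- against wild-type. The star marks the Meis gene, its value for Meis1 in Pkd2-/- cells being a fitted one without a test, and coloured points are called genes. The 49 genes around Meis1 have a median of 0.04 in Pkd1-/- and 0.09 in Pkd2-/- cells.

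The genes whose pattern over the 12 libraries was most like that of a Meis gene were found by Pearson r of log2(normalized count + 1) among 13702 genes, as a description. The points share genotype and library, so 3 group means set most of each r, and 389 genes had an r over 0.95 with Meis1. Zfp202, a zinc finger gene, came first (r = 0.996), with means of 138, 58.5 and 0 in wild-type, Pkd1-/- and Pkd2-/- cells. It was followed by Bnipl, Fndc10, the caspase gene Casp6 and the cyclophilin gene Ppic (each r = 0.994 or 0.995), which fell in the same order of genotypes but kept means of 52.8 to 1344 in Pkd2-/- cells.
Zfand2a (r = 0.987) and the dynein assembly factor gene Dnaaf5 (r = 0.983) ranked 1 and 2 in likeness to Meis2. Zfand2a averaged 1305, 2233 and 1482 in wild-type, Pkd1-/- and Pkd2-/- cells. The tyrosine kinase gene Src, the integrin gene Itga3 and Mfsd12 were most like Meis3 (r = 0.986 to 0.989).

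The other TALE homeobox genes were counted for comparison, 10 genes of which 8 were tested. In Pkd1-/- against wild-type 0 were called higher and 1 lower, and in Pkd2-/- against wild-type 1 was called higher and 2 lower, where the shares of all genes were 2.96% higher and 3.28% lower in Pkd1-/- and 3.24% and 6.38% in Pkd2-/- cells. Their median log2 fold change was -0.28 and -0.03. Irx2, a gene of the Iroquois group, was 557, 582, 576 and 532 in wild-type libraries, 360, 391, 385 and 383 in those of Pkd1-/- and 0 in all Pkd2-/- libraries. As with Meis1, the order of genotypes ran from wild-type over Pkd1-/- to Pkd2-/-, and against 3 counts per library Irx2 was at least 187-fold lower in Pkd2-/- than in wild-type cells.
Irx1, which lies on the same chromosome, was 5, 11, 9 and 4 in wild-type and 0 in all libraries of both mutants, a level at least 2.42-fold lower. Irx3, on another chromosome, was 1030, 1114, 1077 and 984 in wild-type libraries, 817, 798, 850 and 738 in those of Pkd1-/- and 2010, 2011, 2326 and 2184 in Pkd2-/- libraries. It rose in Pkd2-/- cells (log2 fold change 1.02, limma adjusted p = 1.73e-10) and was lower in Pkd1-/- cells (-0.39, adjusted p = 8.79e-05). Its neighbour Irx5 was higher in Pkd2-/- cells by 0.67 (adjusted p = 6.11e-08).

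**Figure D5:**
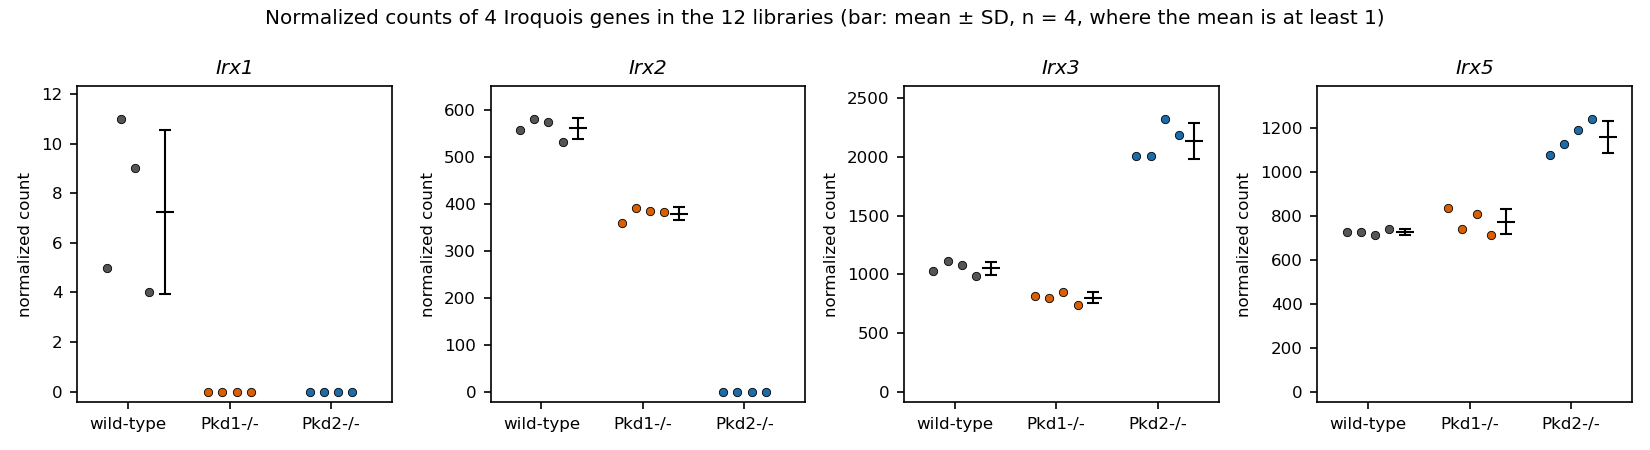
Normalized counts (linear axis from 0) of Irx1, Irx2, Irx3 and Irx5, with a point for each of the 12 libraries and a bar for the mean ± SD of 4 libraries where the mean is at least 1. Irx1 is at 0 in both mutants, Irx2 is at 0 in Pkd2-/- libraries, and Irx3 and Irx5 are highest there.

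Hox proteins are the DNA-binding partners of Pbx and Meis proteins. Of 10 tested Hox genes of paralog groups 9 to 13, 0 were called higher and 6 lower in Pkd2-/- against wild-type (median log2 fold change -1.72), and 1 higher and 3 lower in Pkd1-/- (median 0.0). Over all genes, 3.24% were called higher and 6.38% lower in Pkd2-/- cells, and 2.96% and 3.28% in Pkd1-/- cells. Of 19 tested genes of groups 1 to 8, 5 were called lower by limma in Pkd2-/- cells and 0 in Pkd1-/- cells, where 4 had an unadjusted p under 0.05.
Of 10 cofactor genes of Pbx and Meis proteins 0 were called in any comparison by limma, although 4 passed the adjusted p alone in Pkd1-/- and 6 in Pkd2-/- against wild-type, beside 27.1% and 42.3% of all genes, and 6 and 7 had an unadjusted p under 0.05. Among them Pbxip1, whose protein binds Pbx proteins and keeps them from DNA, averaged 5084 ± 296 in wild-type libraries, 3933 ± 214 in those of Pkd1-/- and 3641 ± 45.6 in Pkd2-/- cells, at log2 fold changes of -0.37 (adjusted p = 1.3e-05) and -0.48 (adjusted p = 2.44e-07).

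Genes known as MEIS1 targets in other cells, 13 of which 11 were tested, gave 1 called higher and 1 lower in Pkd1-/- and 0 higher and 1 lower in Pkd2-/- cells, beside 6.24% and 9.62% of all genes called in either direction. Trib2, a pseudokinase gene, was 49, 32, 61 and 34 in wild-type libraries, 4, 1, 6 and 7 in those of Pkd1-/- and 54, 50, 44 and 77 in Pkd2-/- libraries. It fell in Pkd1-/- cells (log2 fold change -3.16, limma adjusted p = 2.11e-06) and was not called in the Pkd2-/- cells that lacked Meis1 (0.36, adjusted p = 0.468).
Epas1, which encodes a hypoxia-inducible factor, averaged 18.3 ± 4.99 in wild-type libraries, 57.0 ± 11.7 in those of Pkd1-/- and 18.0 ± 6.27 in Pkd2-/- cells, and rose in Pkd1-/- cells (1.62, adjusted p = 0.00025). Myb, a transcription factor gene of proliferating cells, averaged 92.0 ± 15.1 in wild-type libraries, 124 ± 30.4 in those of Pkd1-/- and 28.3 ± 7.76 in Pkd2-/- cells, and fell in Pkd2-/- cells (-1.69, adjusted p = 2.51e-06). The median over the 11 was -0.1 in Pkd1-/- and -0.32 in Pkd2-/- cells, beside 0.01 and -0.01 over all genes tested.

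Meis and Pbx genes are also expressed in stromal cells, so stromal markers are given beside the loss of Meis1. The 9 stromal markers summed to 2405 to 2655 normalized counts in wild-type libraries, 1700 to 1867 in those of Pkd1-/- and 2031 to 2327 in Pkd2-/- libraries, and nearly all of each sum was Foxd1, with means of 2343, 1586.5 and 2104.5. Pdgfra, Pdgfrb and Lum averaged 2.5 or less in every genotype. In Pkd1-/- cells Col3a1 was called higher (66.3 against 4.75), and in Pkd2-/- cells Acta2 (19 to 23 against 109 to 143) and Pdgfrb (0 against 0 to 4) were called lower. The Pdgfrb libraries overlapped, and its wild-type mean of 2.5 lay within the 3 counts that a value of 0 allows. The collagen genes Col1a1, Col1a2 and Col3a1 averaged 13.3, 12.8 and 14.5 in Pkd2-/- cells against 4.25, 1.5 and 4.75 in wild-type, with overlapping libraries and no call. Single Pkd2-/- libraries ranged widely, from 2 to 31, 0 to 44 and 0 to 42, against 0 to 8, 0 to 3 and 3 to 7 in wild-type. The part of these markers in the result was not tested. The 5 leukocyte markers summed to 893 to 1000 in wild-type libraries, 428 to 652 in those of Pkd1-/- and 732 to 827 in Pkd2-/- libraries, mostly from Csf1r (means of 880.5, 479 and 734), with Adgre1 at 0 throughout, and the 5 endothelial markers did not exceed 10, with Cdh5 and Kdr at 0 throughout. The 4 intercalated cell markers summed to 29 to 82, 437 to 547 and 3 to 5, mostly from Atp6v1b1 in wild-type and Pkd1-/- libraries (means of 57.0 and 513, beside 1.0 in Pkd2-/- libraries), with Foxi1 at 0 in every library.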

How the data were processed

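RNA of 12 mIMCD3 cultures was sequenced. Per the methods, the authors used Trim Galore for trimming, HISAT2 for alignment to GRCm38, HTSeq for counting per gene and DESeq2 for size factors. Each deposited score is a count divided by its library's size factor and rounded by the authors to a whole number, so no count model was used here. All 12 columns were used, and 0 pairs of libraries were identical. The members and gene lists were chosen with earlier results of these data known.

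The tests used limma 3.58.1 (lmFit, eBayes with trend, R 4.3.3) on log2 of the normalized count plus a pseudocount of 1, in 1 model of 12 libraries, over the 18552 genes averaging 1 or more. P-values were two-sided and Benjamini-Hochberg adjusted per comparison, and genes were called at an adjusted p under 0.05 with an absolute log2 fold change of 1 or more. Exact permutation tests were two-sided. The fitting procedure was checked on simulated data with the same dispersion for every gene. That check does not give its error rate on these libraries. Positions and lengths came from GENCODE M21, which holds 47223 of the identifiers (419 were not found). The genes named by rule were all members, the called genes of the lists, the 5 genes most like Meis1 and 3 most like Meis2 and Meis3 by Pearson r, the called genes within 500 kb of a Meis gene, and Pkd1 and Pkd2. Irx5, Pbxip1, the nearest expressed neighbours and the genes ranked by Spearman rho were named after their values were seen. Of the Hox list only counts are given, and some genes that the rule names are not reported here. Alternatives were another pseudocount, filter, scaling, model, variance trend or threshold, a replicate block, and leaving out each library. Protein sequences were not used here beyond the translation of the homeobox windows.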

Additional observations from a re-analysis of the deposited data

Results flagged for a closer look

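Among the 8 members in 3 genotypes, 23 groups of 4 libraries held more than 1 value, and in 4 of them a library stood apart by Dixon's criterion. Chance meets it in about 1 of 20 groups of continuous values, a rate that does not carry over to rounded counts with ties. Where the other libraries are all equal, as for Meis1 and Meis3 in Pkd2-/- cells, any difference meets it. Meis1 was 143 in wild-type replicate 4, where the others were 180 to 186. Meis1 was 1 in Pkd2-/- replicate 3, where the others were 0, a difference of a single count. Meis3 was 107 in Pkd2-/- replicate 2, where the others were all 102. Pbx2 was 1498 in Pkd1-/- replicate 1, where the others were 1533 to 1539.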

How the results depend on the processing

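Without a fold change threshold the counts of members called went to 4 in Pkd1-/- against wild-type (Meis1, Meis2, Meis3 and Pbx3), 4 without Meis1 in Pkd2-/- against wild-type and 5 without Meis1 in Pkd2-/- against Pkd1-/-, and those of all genes called to 5020, 7852 and 8588, from 1158, 1785 and 2182. A minimum mean of 10 gave 739 genes called in Pkd1-/- against wild-type. With the replicate number as a block, 1170, 1790 and 2183 genes were called, and no call of a member changed. The numbers did not pair the samples, since same-numbered libraries of different genotypes had correlations of deviations from -0.073 to 0.2, and 4 of 12 libraries correlated best with their own number. With each library left out in turn, 1095 to 1144, 1698 to 1749 and 2061 to 2171 genes were called. Over all alternatives no fold change of a member reversed, and with the fold threshold kept Meis3 in Pkd1-/- cells was the only member whose call changed, past the fold threshold with a pseudocount of 0.5 (-1.01) and without any of 4 single libraries (lowest value -1.14), when 3 members were called in place of 2. Its adjusted p ranged from 0.000747 to 0.0104. The fitted value of Meis1 in Pkd2-/- against wild-type ranged from -8.03 to -5.08 over the alternatives, the end points being pseudocounts of 0.5 and 5. Rounding of the deposited values limits genes of a few counts, such as Pknox2 and Irx1.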

Other observations

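The promoters of 5 members (Meis1, Meis2, Meis3, Pbx2 and Pbx4), taken as 300 bases around the start site from RefSeq in GRCm38.p6, were searched on both strands for TGACAG, the core recognised by Meis and Pknox proteins. The core was found in 0 of the 5, and 19.2% of all 32851 promoters of the same length hold it. The composite Pbx-Meis sequence, TGAT followed directly by TGACAG and so containing the core, was found in 0 of the 5 and in 0.222% of all promoters.

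When likeness to Meis1 was ranked by Spearman rho in place of Pearson r, 0 of the 5 leading genes were shared. The 3 leading genes by rho were Dram1, Flot1 and Srd5a1. Srd5a1, a steroid 5-alpha reductase gene, averaged 1938, 1157 and 444 normalized counts in wild-type, Pkd1-/- and Pkd2-/- cells.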
